A study of Mus musculus with 6 samples.

Results

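Genes that make, move and remove adenosine were measured in the aorta of mice that lack the adenosine A1 receptor gene Adora1 and of mice that keep it. The 10 genes considered were Entpd1, Entpd2 and Nt5e for production outside the cell, Slc29a1, Slc29a2 and Slc29a3 for transport, Adk, Ada and Dpp4 for clearance, and Ahcy for production inside the cell. A gene entered when at least 1 probe set of the array names it and no other gene, and it was represented by whichever of its probe sets was brightest on average. Of the 10 genes, 9 met this rule, among 19752 genes that such a probe set represents. Ahcy did not, because each of its 3 probe sets also names Gm4737, and no value is given for it.

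Both groups were C57BL/6 mice 20 weeks old and both carried apoe-/-, a genotype prone to atherosclerosis. The comparison group, labelled apoe-/- (ApoE-KO), had 3 arrays of aorta, and the group labelled apoe-/- adora1-/- (DKO) had 3. The series text describes the comparison group as mice lacking Adora1 instead, and the sample labels were followed here. That text counts 3 mice per genotype. The 6 arrays include no wild-type mouse and none labelled as lacking Adora1 alone, so every difference below was measured on an Apoe-deficient background. The labels do not say whether either deletion was limited to a cell type.

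Adenosine outside cells comes largely from released ATP and ADP. Ectonucleotidases of the CD39 family cut these to AMP, and CD73 cuts AMP to adenosine, which acts on G protein-coupled receptors until equilibrative transporters carry it into the cell. There adenosine kinase returns it to AMP or adenosine deaminase converts it to inosine. In arteries this system is known for dilating vessels, restraining platelets and dampening inflammation.

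Values are log2 intensities, so a difference of 1 is a doubling. Medians of the 6 arrays were 8.009 to 8.025. Each of the 7 contractile smooth muscle markers and each of the 8 endothelial markers stood above 7.13, the 95th percentile of 1027 olfactory receptor genes, which served as a guide to the level of unused genes. Arrays of replicate 3 stood apart in both groups: the summed level of the 8 lung epithelium markers was 14.57 in ApoE-KO and 13.89 in DKO, while the other 4 arrays gave 10.10 to 10.20. Adora1 and the other adenosine receptor genes are not analysed here, so the Adora1 level could not check the labels. In whole aorta, fewer cells of a type and less RNA per cell cannot be told apart.

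Differences were tested with limma over all 25254 probe sets, DKO minus ApoE-KO, and a gene passed at a Benjamini-Hochberg adjusted p under 0.05. Same-numbered arrays of the groups deviated together, so a fit with the replicate number as a block, called the paired fit below, is given too. None of the 9 genes passed in either fit. Unpaired, 0% of all probe sets passed (smallest adjusted p = 0.235), and with the block 0.174% did. At an unadjusted p under 0.05 the unpaired fit held 1 of the 9 genes, Nt5e, where 5.62% of all probe sets were under it. The paired fit held 2, Nt5e and Adk, where 16.2% of all probe sets were under it.

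The sequences upstream of Nt5e and Adk are shown because these are those 2 genes. RefSeq (build GRCm38.p6) gives 1 start window for Nt5e, at chr9:88327359-88327608 on the plus strand, and 2 for Adk, at chr14:21052324-21052573 and chr14:21075902-21076151, both on the plus strand. Each is the 250 bases before an annotated start, written 5′ to 3′, and capitals mark the GC box GGGCGG on either strand, overlapping copies included.
Nt5e: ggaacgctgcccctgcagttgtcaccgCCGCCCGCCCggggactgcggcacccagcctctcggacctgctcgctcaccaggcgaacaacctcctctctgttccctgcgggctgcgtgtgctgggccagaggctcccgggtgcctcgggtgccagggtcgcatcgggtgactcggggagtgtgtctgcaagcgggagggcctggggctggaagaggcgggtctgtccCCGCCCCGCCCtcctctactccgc
Adk, first start: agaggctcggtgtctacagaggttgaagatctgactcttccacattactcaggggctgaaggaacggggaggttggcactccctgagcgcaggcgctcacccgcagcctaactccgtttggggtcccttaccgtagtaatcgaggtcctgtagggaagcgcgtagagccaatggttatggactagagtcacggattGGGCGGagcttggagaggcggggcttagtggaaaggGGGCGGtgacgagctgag
Adk, second start: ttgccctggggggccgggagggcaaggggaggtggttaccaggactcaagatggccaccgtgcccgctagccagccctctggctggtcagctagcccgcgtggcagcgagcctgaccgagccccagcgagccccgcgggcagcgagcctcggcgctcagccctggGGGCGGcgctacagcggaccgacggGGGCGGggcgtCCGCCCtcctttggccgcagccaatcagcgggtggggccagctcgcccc

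The GC box occurs 4 times upstream of Nt5e, 2 times at the first Adk start and 3 times at the second. It occurs in 32.7% of 32851 RefSeq windows of this length. The 10 named genes, Ahcy included, have 19 windows, of which Slc29a1 has 8, and 11 of the 19 hold the box. Counted by gene, 7 of the 10 have it in at least 1 window, a count that cannot be set against a share of windows. The 19 windows are richer in G and C than all windows (median 60.0% against 52.4%), and the box holds only these letters. The part of composition in the counts was not tested. The full cAMP response element TGACGTCA, the site of a factor downstream of adenosine receptors, was found in 0 of the 19 windows and in 1.55% of all windows. The shorter core TGACG, searched on both strands and also part of the full site, was found in 4 of the 19 (Entpd1 at both starts, 1 start each of Adk and Slc29a1), against 17.8% of all. A hypoxia core, ACGTG or GCGTG on either strand, was searched as well and found in 11 of the 19, against 38.6% of all. A match is a string of letters and no evidence of binding, and the Adk probe set does not tell its starts apart.

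Production outside the cell. Nt5e encodes CD73, the enzyme that releases adenosine from AMP. Its level was 8.31, 8.28 and 8.28 in ApoE-KO replicates 1, 2 and 3, against 8.40, 8.75 and 8.59 in the same DKO replicates. All DKO arrays lay above all ApoE-KO arrays, and the ApoE-KO arrays were almost level while the DKO arrays spread, with replicate 1 closest to ApoE-KO.

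Group means for Nt5e were 8.29 ± 0.02 in ApoE-KO and 8.58 ± 0.18 in DKO (SD, n = 3 each). The difference of 0.29 (1.22-fold, 95% interval 0.05 to 0.53) did not pass (limma, adjusted p = 0.861). With the block the interval was 0.09 to 0.50 and the adjusted p 0.189 (limma). An exact permutation test, two-sided, gave p = 0.1, the smallest that 3 against 3 can give. Nt5e was the only one of the 9 genes whose groups did not overlap, and 12% of all probe sets had no overlap.

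Entpd1 encodes CD39, which removes phosphates from ATP and ADP at the surface of endothelium and leukocytes. It read 12.51, 12.10 and 12.38 on the ApoE-KO arrays and 12.54, 12.39 and 12.39 on the DKO arrays. The groups overlapped, and ApoE-KO replicate 2 was the low array. The difference was 0.11 (95% interval -0.15 to 0.38; limma, adjusted p = 0.925). Pair 2 supplied most of it: pairs 1, 2 and 3 stood at 0.04, 0.29 and 0.02.

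Entpd2 encodes NTPDase2, a relative that prefers ATP over ADP. Its values were 10.58, 11.09 and 10.65 on the ApoE-KO arrays and 10.53, 10.89 and 10.85 on the DKO arrays. Replicate 2 was high in both groups, and the groups overlapped throughout. Pairs disagreed in direction, at -0.06, -0.21 and 0.20, and the difference was -0.02 (95% interval -0.40 to 0.36; limma, adjusted p = 0.994). It was the only one of the 9 with a lower mean in DKO.

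**Figure D1:**
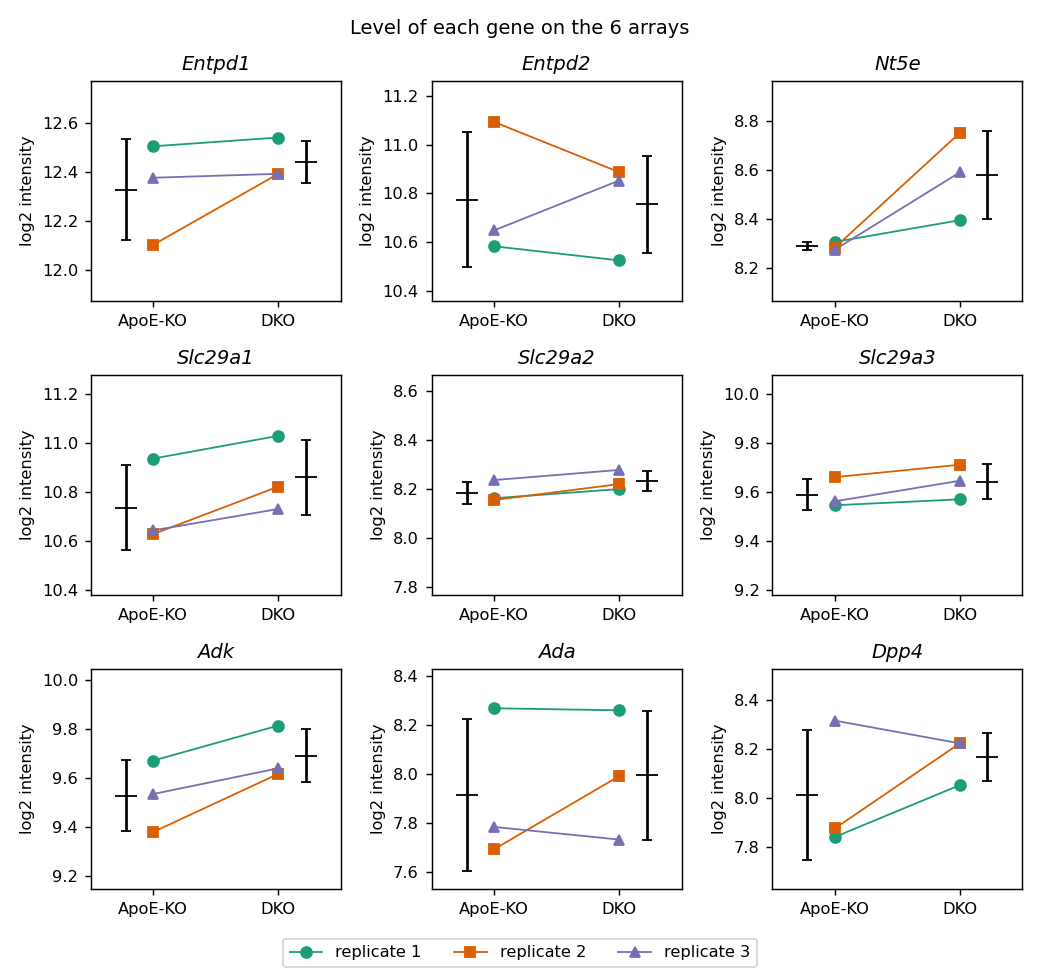
Log2 intensity (y axes, each spanning 0.9) of the 9 genes on the 6 arrays, ApoE-KO on the left and DKO on the right of each panel. Lines join arrays of the same replicate number, and black bars are the group mean ± SD (n = 3). Only Nt5e has all DKO arrays above all ApoE-KO arrays; in Slc29a1, Adk and Ada replicate 1 is the highest array of both groups.

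Transport across membranes. The 3 equilibrative nucleoside transporters let adenosine pass down its gradient, and all 3 had DKO means that were higher by small amounts, 0.05 to 0.12. Slc29a1 encodes ENT1, the main carrier that takes adenosine into vascular cells and the target of dipyridamole. It read 10.94, 10.63 and 10.64 on the ApoE-KO arrays and 11.03, 10.82 and 10.73 on the DKO arrays. Replicate 1 was highest in both groups and DKO replicates 2 and 3 stayed below ApoE-KO replicate 1, so the groups overlapped.

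Every pair of Slc29a1 was higher in DKO, by 0.09, 0.19 and 0.09. The difference of 0.12 had a 95% interval of -0.16 to 0.41 unpaired and of -0.0046 to 0.25 with the block (limma, adjusted p = 0.922 and 0.321). The spread between replicate numbers, an SD of 0.17 in ApoE-KO and 0.15 in DKO, exceeded the difference, which was 0.040 without DKO replicate 1 and 0.23 without ApoE-KO replicate 1.

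Slc29a2 encodes ENT2, a carrier that also takes nucleobases. Its 6 values were the tightest of the group, 8.16, 8.15 and 8.24 on the ApoE-KO arrays and 8.20, 8.22 and 8.28 on the DKO arrays. Its difference was 0.05 (95% interval -0.12 to 0.22; limma, adjusted p = 0.947), with pairs at 0.04, 0.07 and 0.04. Its interval was the narrowest of the 9 genes in the unpaired fit.

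Slc29a3 encodes ENT3, a transporter of lysosomes and mitochondria. ApoE-KO arrays read 9.55, 9.66 and 9.56 and DKO arrays 9.57, 9.71 and 9.65, with replicate 2 highest in both groups. The difference was 0.05 (95% interval -0.14 to 0.25; limma, adjusted p = 0.949), and pairs stood at 0.02, 0.05 and 0.08.

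Clearance. Adk encodes adenosine kinase, which turns adenosine back into AMP. It read 9.67, 9.38 and 9.54 on the ApoE-KO arrays and 9.82, 9.62 and 9.64 on the DKO arrays. Each DKO array was above its same-numbered ApoE-KO array, though DKO replicates 2 and 3 lay below ApoE-KO replicate 1.

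Adk pairs stood at 0.14, 0.24 and 0.11. The mean difference was 0.16 (1.12-fold), with a 95% interval of -0.09 to 0.41 unpaired and of 0.02 to 0.30 with the block (limma, adjusted p = 0.871 and 0.262). The enzyme that produces adenosine from AMP and the one that returns it to AMP thus both had higher means in DKO, and neither passed.

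Ada encodes adenosine deaminase, which converts adenosine to inosine. Its values were 8.27, 7.69 and 7.78 on the ApoE-KO arrays and 8.26, 7.99 and 7.73 on the DKO arrays. Replicate 1 stood high in both groups, and the groups covered nearly the same range. The 3 pairs were -0.01, 0.30 and -0.05, so the mean difference of 0.08 (95% interval -0.36 to 0.52; limma, adjusted p = 0.962) came from pair 2.

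Dpp4 encodes CD26, a membrane peptidase that on human cells also anchors adenosine deaminase. ApoE-KO arrays read 7.84, 7.88 and 8.32 and DKO arrays 8.05, 8.23 and 8.22. ApoE-KO replicate 3 was the highest of all 6, and it is the array with the highest lung epithelium markers. DKO replicate 3 also had high lung epithelium markers, and its Dpp4 level was about that of DKO replicate 2. The part of the lung signal in Dpp4 was not tested. Pairs were 0.21, 0.35 and -0.09, and the difference was 0.16 (95% interval -0.17 to 0.48; limma, adjusted p = 0.908). In the paired fit without both replicate 3 arrays it was 0.28 (limma, adjusted p = 0.298).

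**Figure D2:**
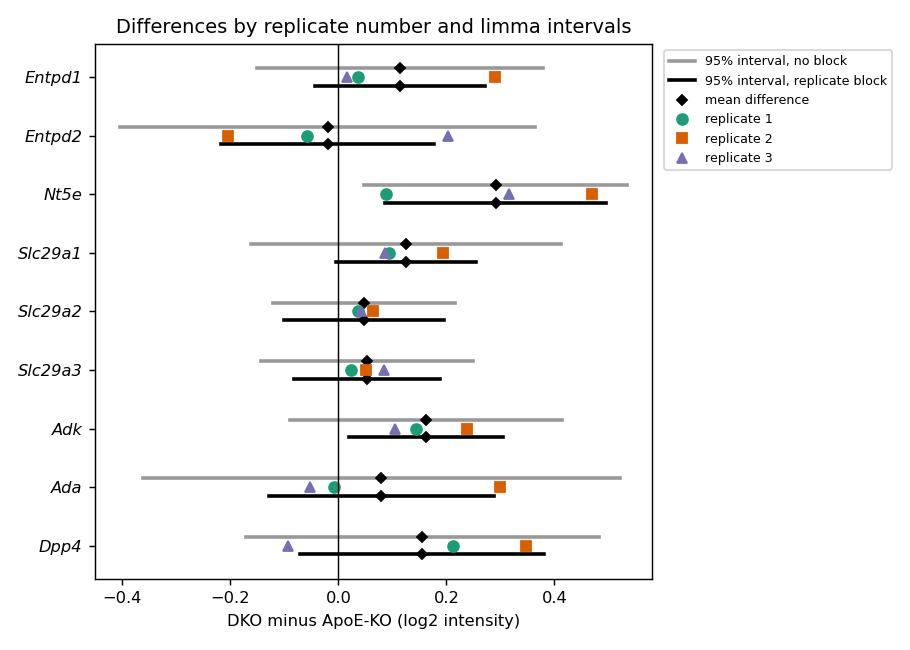
DKO minus ApoE-KO in log2 intensity (x axis) for each of the 9 genes. Coloured symbols are the 3 replicate numbers, diamonds the mean, and bars the 95% limma intervals without (grey) and with (black) the replicate block. The grey interval lies above 0 for Nt5e alone, the black one for Nt5e and Adk, and none passed after adjustment over all probe sets.

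Across the 9 genes, 8 had a higher mean in DKO, where 49.3% of all probe sets did. In 6 genes (Entpd1, Nt5e, Slc29a1, Slc29a2, Slc29a3 and Adk) all 3 pairs were higher, where 21.2% of all probe sets were. No gene was lower in all 3 pairs, and pairs were mixed in Entpd2, Ada and Dpp4. Without replicate 3, 7 of the 9 were higher in both remaining pairs, where 29% of all probe sets were. These counts carry no test, since the genes were chosen with earlier results of these data known.

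The median difference over the 9 genes was 0.11, and by pair it was 0.04, 0.24 and 0.08. Over all 19752 genes the median was -0.0027, with pair medians of 0.0026, -0.0087 and 0.015. Pair 2 gave the largest difference in 7 of the 9 genes by value, the exceptions being Slc29a3 and Entpd2, whose pair 3 was largest.

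Much of the variation in this group followed the replicate number instead of the genotype. Replicate 1 was the highest array of its group, in both groups, for Entpd1, Slc29a1, Adk and Ada, and the lowest for Entpd2, Slc29a3 and Dpp4. Replicate 1 was also highest in the summed contractile smooth muscle markers (15.93 for ApoE-KO, 15.96 for DKO and 15.78 to 15.85 on the other arrays) and lowest in the sums of 8 of the 13 marker lists: endothelium, lymphatic endothelium, macrophage, T cell, white and brown adipocyte, mast cell and cardiac muscle. The part of these cells in the patterns was not tested.

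Nt5e and the summed mesothelial markers were both higher on every DKO array than on every ApoE-KO array. All 7 listed markers of mesothelium, the cell layer that lines body cavities and covers the organs in them, had higher means in DKO. Of all probe sets 49.3% had a higher mean. All 3 pairs were higher in 6 of the 7, where 21.2% of all probe sets were, and Krt19 was mixed (0.10, 0.50 and -0.28). The summed level of the 7 ran from 10.31 to 10.67 in ApoE-KO and from 11.00 to 11.51 in DKO. By pair the difference of the sums was 0.61, 1.20 and 0.50. Both Nt5e and the summed markers were highest on DKO replicate 2, but pair 1 was the smallest in Nt5e and pair 3 the smallest in the markers. Within ApoE-KO the marker sum was highest on replicate 3 (10.67), while Nt5e was almost level over the replicates (8.31, 8.28 and 8.28). The part of mesothelium in the Nt5e difference was not tested.

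Markers of other cells that can carry Nt5e or Entpd1 were summed in the same way, and so were those of contractile smooth muscle. The smooth muscle sum differed by 0.05 (pairs 0.03, 0.07 and 0.04). Of its 7 markers, 5 were higher in every pair, where 21.2% of all probe sets were, and 2 were mixed. Summed adventitial fibroblast markers differed by 0.04 (pairs -0.11, 0.02 and 0.20), with 6 measured markers that ran from 15.04 to 15.30 in ApoE-KO and from 14.99 to 15.32 in DKO. Summed endothelial markers differed by 0.07 over 8 markers, from 13.29 to 13.77 in ApoE-KO and from 13.41 to 13.81 in DKO. Macrophage markers (7 measured) had pairs of -0.72, 0.38 and 0.14, with sums of 13.21 to 13.34 in ApoE-KO and 12.49 to 13.72 in DKO.

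T cell markers (7 measured, 4 of them above the olfactory receptor level of 7.13) ran from 10.03 to 10.11 in ApoE-KO and from 9.84 to 10.17 in DKO. Lymphatic endothelium went the other way from Nt5e: its 6 markers summed to 11.85 to 12.31 in ApoE-KO and 11.33 to 11.78 in DKO. The white adipocyte sum had pairs of -0.80, -0.59 and -0.76, with 6 of its 7 markers lower in every pair and 1, Lep, higher in every pair (a mean of 0.36, from a level of 6.87 in ApoE-KO). The listed intensities have no zero, so no marker is at 0.

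**Figure D3:**
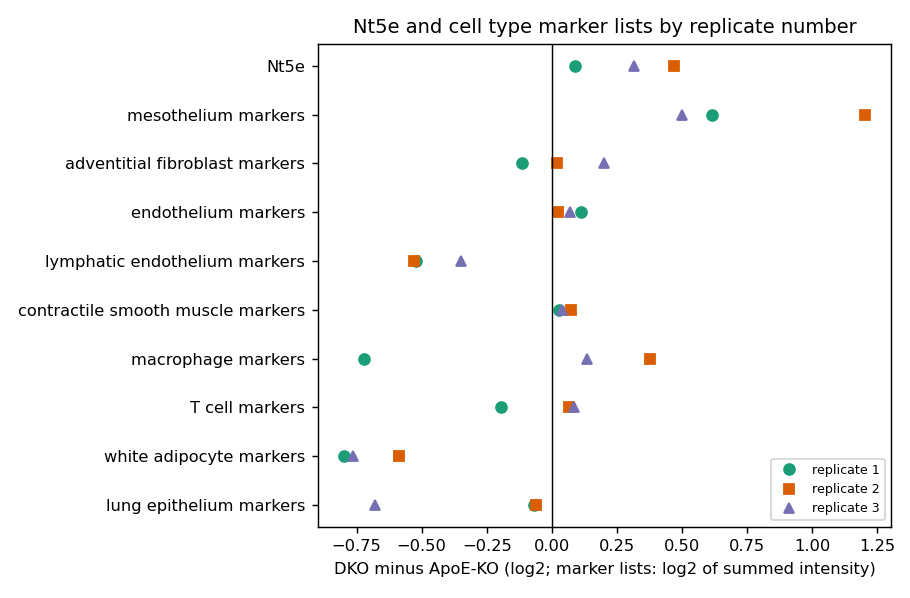
DKO minus ApoE-KO by replicate number (symbols) for Nt5e and for the summed level of 9 cell type marker lists, in log2 units on the x axis. Mesothelium is the list with the highest pairs, from 0.50 to 1.20, beside 0.09 to 0.47 in Nt5e; lymphatic endothelium and white adipocyte markers have all pairs below 0.

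By likeness over the 6 arrays, the genes closest to Nt5e were Anapc16, a subunit of the anaphase-promoting complex (Pearson r = 0.9935), H2-Q4, an MHC class I gene (0.9886), and Nbea, which encodes neurobeachin (0.9823). Of 19751 genes compared, 37 had an r over 0.95 with Nt5e. H2-Q4 differed by 0.35 (limma, adjusted p = 0.861; with the block 0.113). For Ada, the gene with the widest range over the arrays (0.58), the closest were Crnkl1, a splicing factor (0.9985), Spring1, a regulator of SREBP (0.9982), and Chml, a Rab escort protein (0.9946), and 193 genes had an r over 0.95. All values come from the same 6 arrays, and r here orders genes and carries no test.

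Other genes of the purine pathway stood on both sides of 0. Of 49 other genes listed for purine handling, 41 met the same rule on probe sets, and 17 of these had a higher and 24 a lower mean in DKO (median -0.02). None passed in either fit. Unpaired, 3 were under an unadjusted p of 0.05 on the higher side, where 2.94% of all probe sets were, and 2 on the lower side, where 2.68% were. With the block 8 were higher, against 10.1% of all probe sets, and 6 lower, against 6.1%. All 3 pairs were higher in 11 genes and lower in 8, where 21.2% and 19.1% of all probe sets were. The groups did not overlap in 10 of the 41, 5 in each direction, and in 12% of all probe sets.

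Purine breakdown was the only role of several measured genes in which all of them were lower in every pair. Pnp encodes the phosphorylase that splits inosine to hypoxanthine; it read 9.31, 9.55 and 9.36 on the ApoE-KO arrays and 8.86, 9.21 and 9.22 on the DKO arrays. The groups did not overlap, and the difference was -0.31 (95% interval -0.60 to -0.01; limma, adjusted p = 0.861, with the block 0.140). Gda encodes guanine deaminase, and it read 8.71, 8.93 and 8.73 against 7.90, 8.65 and 8.54, a difference of -0.43 (limma, adjusted p = 0.862, with the block 0.179) with no overlap and DKO replicate 1 far below the others.

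Xdh, named here after its value was seen, encodes xanthine oxidoreductase, which makes uric acid. It stood at 10.47, 11.29 and 11.11 on the ApoE-KO arrays and 9.92, 10.69 and 10.72 on the DKO arrays. Replicate 1 was lowest in both groups, the groups overlapped, and the pairs agreed at -0.54, -0.60 and -0.39. The difference of -0.51 had an adjusted p of 0.862 unpaired and 0.0503 with the block (limma). White adipocyte markers, summed over 7 genes, ran from 13.52 to 14.24 in ApoE-KO and from 12.72 to 13.65 in DKO. Like Xdh, the sums of 4 of the 13 lists (white adipocyte, lymphatic endothelium, mast cell and cardiac muscle) were lowest in replicate 1 of both groups and lower in DKO in each pair. The part of any of them in the Xdh difference was not tested.

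On the higher side 5 of the 41 genes had no overlap between groups, where 1171 of all 19752 genes had none. Among the 5 were the intracellular 5′-nucleotidases Nt5c3 and Nt5c1a and the acid phosphatase gene Acpp, whose membrane form can also cut AMP. Of the 6 intracellular 5′-nucleotidases measured, 3 had a higher and 3 a lower mean in DKO (median 0.02). Nt5c3 read 7.79, 7.73 and 7.70 on the ApoE-KO arrays and 8.29, 7.995 and 8.01 on the DKO arrays, and the difference of 0.35 did not pass (95% interval 0.12 to 0.58; limma, adjusted p = 0.861, with the block 0.111). Acpp read 7.07, 7.14 and 7.01 against 7.24, 7.48 and 7.42, a difference of 0.31 (limma, adjusted p = 0.861). Nt5c1a had means of 6.88 and 7.09, a difference of 0.21 (limma, adjusted p = 0.862). The Acpp mean in ApoE-KO (7.07) and both Nt5c1a means lie below 7.13, the olfactory receptor level, so the sizes of both differences are uncertain. The Nt5c3 enzyme acts mainly on pyrimidines.

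Bst1, an NAD-consuming ectoenzyme of myeloid and stromal cells, read 7.59, 7.74 and 7.47 on the ApoE-KO arrays and 7.62, 8.69 and 8.10 on the DKO arrays. Its pairs were 0.04, 0.95 and 0.63, and the difference of 0.54 (limma, adjusted p = 0.862, with the block 0.189) thus rested on replicates 2 and 3. The pannexin genes Panx2 and Panx1, which encode channels of a family that releases ATP, differed by -0.24 each (limma, adjusted p = 0.861 and 0.862). In both, 1 of the 3 pairs was slightly above 0, at 0.01 for Panx2 and 0.02 for Panx1.

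The other roles had members on both sides of 0 or small differences. Cell-surface nucleotide hydrolases other than Entpd1 and Entpd2 had a median of 0.03 over 5 measured genes, and organelle or secreted ones -0.14 over 4. The 5 cell-surface genes ran from -0.10 to 0.38. The largest was Enpp3, named here after its value was seen, with pairs of 0.18, 0.30 and 0.66. It did not pass (limma, adjusted p = 0.862, with the block 0.148), and its groups overlapped. Adenylate kinases stood at a median of 0.01 over 4, and the remaining nucleoside transporters at -0.08 over 4, of which Slc28a2 and Slc28a3 had mean levels below the olfactory receptor level of 7.13. The 8 listed genes outside the 41 are not analysed here.

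**Figure D4:**
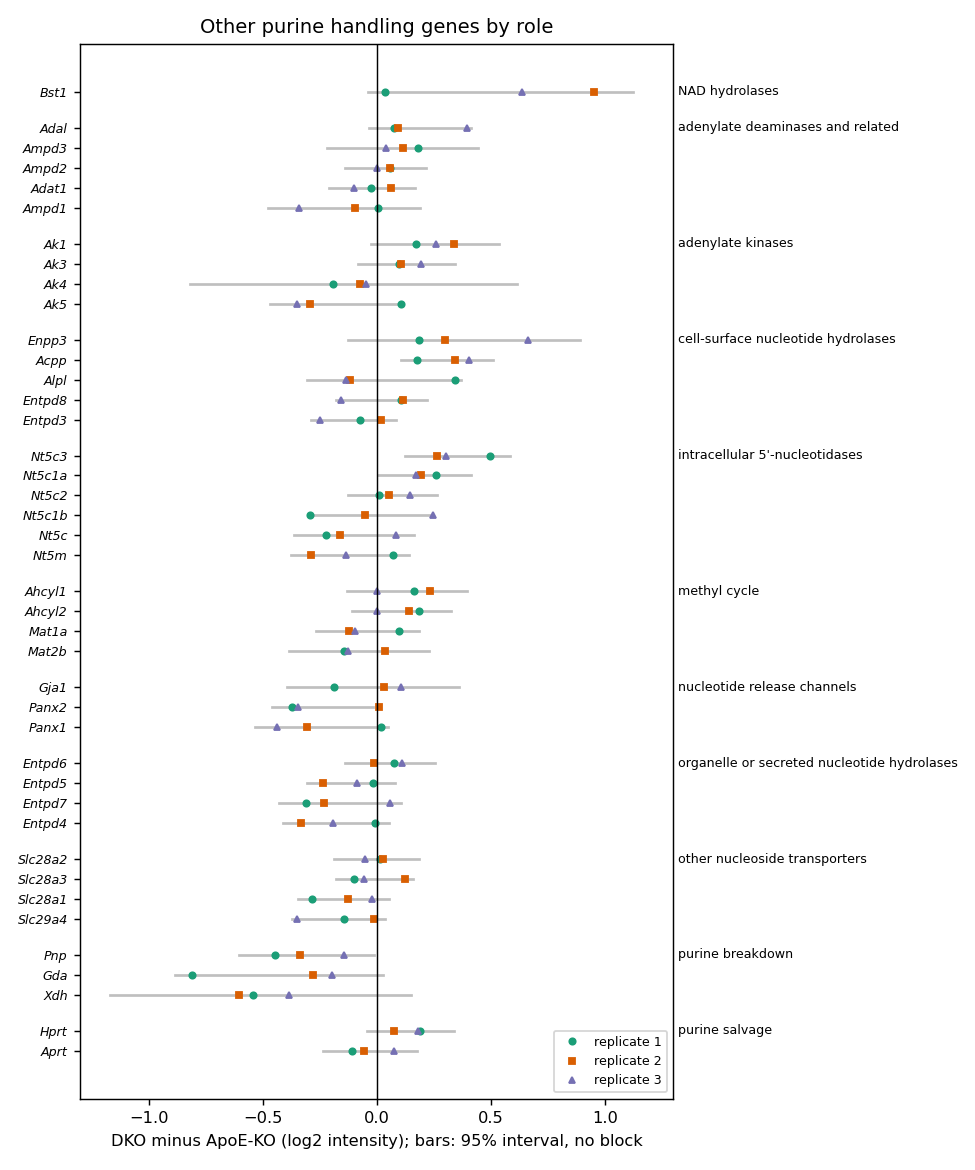
DKO minus ApoE-KO in log2 intensity (x axis) for the 41 other purine handling genes, grouped by role. Symbols are the 3 replicate numbers and grey bars the 95% limma intervals without the block. In 8 genes all symbols are below 0, among them Pnp, Gda and Xdh, of which only Pnp has the whole bar below 0. In 11 genes all symbols are above 0, and in Nt5c3, Nt5c1a and Acpp the whole bar is too. Nt5c1a and, in ApoE-KO, Acpp have mean levels below 7.13, the olfactory receptor level.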

How the data were processed

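Aorta RNA of 6 mice was measured on 6 Affymetrix arrays. The deposited values are log2 intensities per probe set; the submitters' processing notes name RMA, Partek and the build mm9, without versions. The sources used here do not say whether a batch effect was removed. The series text names an array batch as a factor, and no label gives one.

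Gene names came from the annotation of the array platform: 21496 probe sets name 1 gene, 1565 several and 2193 none. All 50 analysed purine gene symbols were found in RefSeq with 0 changed. The fit was limma 3.58.1 in R 4.3.3 (lmFit, eBayes with trend), two-sided, unpaired, on all 25254 probe sets without a filter. Deviations of same-numbered arrays from their group means correlated at 0.60, 0.50 and 0.64, over 0.1 in each pair, so the numbers were treated as pairing the arrays, from the values and not from a label. The script was tested on simulated data. The number of arrays limits the precision.

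The genes and lists were chosen with earlier results of these data known. Named were the listed genes, 4 other purine genes per direction by smallest unpaired p, and the 3 genes most like Nt5e (smallest p) and Ada (widest range); predicted genes and olfactory receptors were not named. Xdh and Enpp3 were added after their values were seen. Alternatives were the block, unmoderated fits with it, eBayes options, array weights, renewed normalization, filters, and arrays left out.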

Additional observations from a re-analysis of the deposited data

How the results depend on the processing

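No alternative passed any of the 9 genes. Of 180 alternative values of single genes, 174 kept their direction and 6 turned, all in Entpd2 and Ada: without ApoE-KO replicate 2 these stood at 0.14 and -0.03, without DKO replicate 1 at 0.095 and -0.053, and with the replicate block but without pair 2 at 0.073 and -0.030. Many of the 174 could not turn. The block with all arrays, the eBayes options, the filters and the rules for choosing a probe set leave each difference as it was. Over the single arrays left out, Entpd2 went from -0.12 to 0.14 and Ada from -0.053 to 0.26. The median of the 9 genes ran from 0.08 to 0.20 with single arrays left out, from 0.06 to 0.14 with the block and a pair left out, and was 0.08 after renewed quantile normalization and 0.13 with array weights.

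With single arrays left out, the Nt5e difference was smallest at 0.20 (DKO replicate 2 omitted) and largest at 0.38 (DKO replicate 1 omitted). Its unadjusted p stayed under 0.05 without ApoE-KO replicate 1 or DKO replicate 1 (0.0455 and 0.00479) and was 0.0607 to 0.0903 without any other array (limma). With the block but without pair 1 its adjusted p was 0.0645 (limma), the lowest of the 9 genes under any setting. Adk ran from 0.09 to 0.23, Entpd1 from 0.0012, without ApoE-KO replicate 2, to 0.20, Slc29a1 from 0.040 to 0.23, and Dpp4 from 0.071, without ApoE-KO replicate 1, to 0.31, without ApoE-KO replicate 3. Each of the 9 genes has 1 probe set of its own, so other rules for choosing one change nothing.

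Over all probe sets 0 passed unpaired and 44 with the replicate block, but 0 in the unmoderated linear model with that block (2669 at an unadjusted p under 0.05), where Nt5e had an unadjusted p of 0.119 from the same pairs. The block changed no call among the 9 genes. Leaving out single arrays passed 0 to 8 (8 without DKO replicate 3), and with the block and pair 1, 2 or 3 left out 415, 0 and 48 passed. Of the other purine genes, 2 passed with the block and without pair 1, Xdh (-0.50, adjusted p = 0.0251) and Bst1 (0.79, adjusted p = 0.0140; limma), and 0 under the other settings. The causes were not tested.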
